A study of Mus musculus with 6 samples.

Results

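Chemokines and their receptors were examined in RNA sequencing libraries of mouse left ventricle. The genes were the protein-coding genes whose symbol consists of Ccl, Cxcl, Ccr, Cxcr, Cx3cl, Cx3cr, Xcl, Xcr or Ackr, a number and at most 1 letter, and they took up 66 of the 47729 gene rows in the deposited table, 21697 of which are protein-coding. The 66 rows carry 61 symbols, because Ccl19, Ccl21a, Ccl21b and Ccl27 have copies on chromosome 4 or on unplaced scaffolds of the mouse assembly GRCm38. Every mouse had undergone transverse aortic constriction (TAC), in which the aorta is narrowed so that the left ventricle pumps against a raised pressure, and the ventricle was taken 9 days later. The 3 control libraries are labelled as the control group after TAC, and the labels do not say what these mice received. The 3 Treg libraries are labelled as the Treg group after TAC, and the series title describes systemic administration of regulatory T cells induced in vitro with CD28 deprived. The labels give no strain, sex, age, cell dose or cell donor, and no unoperated heart was analysed here, so the levels below compare banded hearts with banded hearts. The labels number the libraries but do not state that each came from a separate animal, so each p-value reflects only how far these libraries spread, which may be technical.

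Chemokines are small secreted proteins that are held on heparan sulphate at the surface of vessels and matrix, where they form a gradient that directs migrating leukocytes. They act through receptors coupled to inhibitory G proteins, and most inflammatory receptors accept several ligands while most homeostatic receptors accept few. The atypical receptors bind chemokines without G protein signalling and take the ligand up or carry it across cells. In the pressure-loaded heart, Ccl2 and its receptor Ccr2 are known for bringing in blood monocytes, Cx3cr1 marks many macrophages, and Cxcl12 with Cxcr4 is known for retaining progenitor and immune cells and for vessel growth.

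The libraries held 28937253 to 29979080 counts. Levels are given as CPM, the usual counts scaled to a common library size, here with edgeR's TMM factors, and fold changes are log2 values of Treg minus control. A gene had to pass edgeR's filter on low counts to be tested, which 37 of the 66 rows did, among 17343 genes in all. Cardiomyocyte genes were abundant in the libraries, with 9 markers summing to between 37176 and 61953 CPM. The label names left ventricle with cardiomyocytes and other cells. In these bulk samples, fewer cells of a type and less RNA per cell cannot be told apart. Control replicate 3 stood more than 2-fold apart from the other 5 libraries for many of the genes below. For those of them that were tested, the fold changes are given with and without it.

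Cxcl12, the homeostatic ligand made by stromal and endothelial cells, had the highest median level among single rows of the family. On a scale that corrects for gene length (TPM, the count divided by gene length and rescaled within each library), its median over the 6 libraries was 36.7, followed by the atypical receptor Ackr3 at 29.5, Ccl6 and the scaffold copy of Ccl21a at 14.3 each, the chromosome 4 copy of Ccl21a at 14.1, and Ccl8 at 11.5. Ccl12 stood at 10.5 TPM, Ackr4 at 9.37, Cxcl14 at 9.17, Cxcl16 at 8.41 and Ccl2 at 7.74. Neighbouring genes in this order overlapped in their values over libraries, and Ccl21 was ranked by separate rows rather than by its sum. The order also differed by library. In control replicate 3, Ccl6 at 160.5, Ccl2 at 97.8, Ackr3 at 54.3 and Ccl7 at 48.1 TPM lay above Cxcl12 at 42 TPM. Ccl6 at 32.9 TPM in control replicate 2 and Ackr3 at 40.8 TPM in Treg replicate 1 also lay above Cxcl12, at 32.3 and 39 TPM. The summed level of the 66 rows was 375.0, 439.6 and 750.4 CPM in control replicates 1 to 3 and 457.8, 415.0 and 458.3 CPM in Treg replicates 1 to 3. The control replicate 3 total was thus the highest, and the other 5 lay between 375.0 and 458.3. Cxcl12 made up 26.3% of the summed level in control replicate 3 and between 34.2% and 44.9% in the other libraries. Ccl6 made up 22.1% in control replicate 3 and between 2.15% and 7.64% in the others. These shares are of CPM, which is not corrected for gene length, so they compare libraries and do not rank genes.

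**Figure D1:**
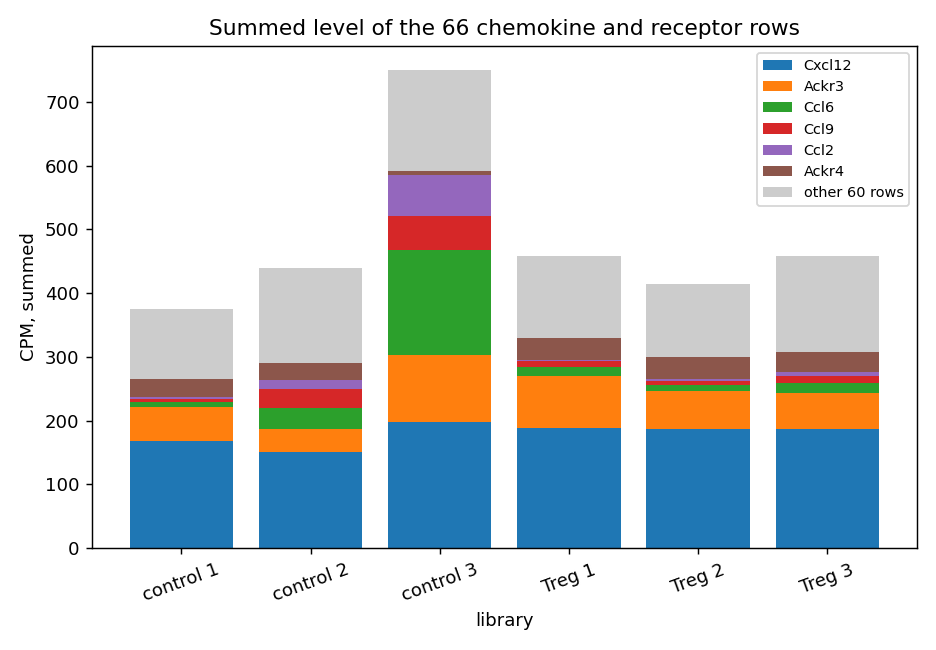
Summed level in CPM of the 66 chemokine and receptor rows in each library, with the contribution of the leading genes stacked. Control replicate 3 reaches 750.4 CPM, while the other 5 libraries lie between 375.0 and 458.3 CPM.

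No chemokine or receptor gene passed edgeR's quasi-likelihood test of Treg against control at an adjusted p of 0.05, where the share of all genes called was 0% higher and 0% lower. The smallest adjusted p was 0.135 for Ccl3 among the family and 0.087 among all genes with edgeR. At an unadjusted p under 0.05, 4 of 37 family rows were higher and 7 were lower, beside 8.24% higher and 8.31% lower over all genes tested. The 4 higher rows were all Ccl21 copies, and the 7 lower ones were Ackr2, Ccl2, Ccl3, Ccl6, Ccl9, Ccr1 and Cxcr6. The groups did not overlap for 7 rows that were higher in all Treg libraries, beside 13.7% of all genes, and for 3 rows that were lower, beside 11.7%. The 7 were 5 Ccl21 rows, Ccl25 and Ackr4, and the 3 were Ccl3, Ccr1 and Ackr2. The fold change was above 0 for 21 of the 37 rows and below 0 for 16, beside 47.9% above and 52.1% below over all genes tested. The median log2 fold change was 0.12 over the 37 rows and -0.02 over all genes tested. These counts and the median take each Ccl21 row separately. With the rows of Ccl19, of Ccl21 and of Ccl27 summed, the median was 0.02 over 33 rows. DESeq2's Wald test called 4 rows at an adjusted p of 0.05, 2 Ccl21a rows higher and Ccl3 and Ccr1 lower, beside 1.86% higher and 1.9% lower over all genes. Without control replicate 3, edgeR called the chromosome 4 copy of Ccl21a higher and no row lower among 42 tested, beside 0.664% and 0.618% of all genes.

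**Figure D2:**
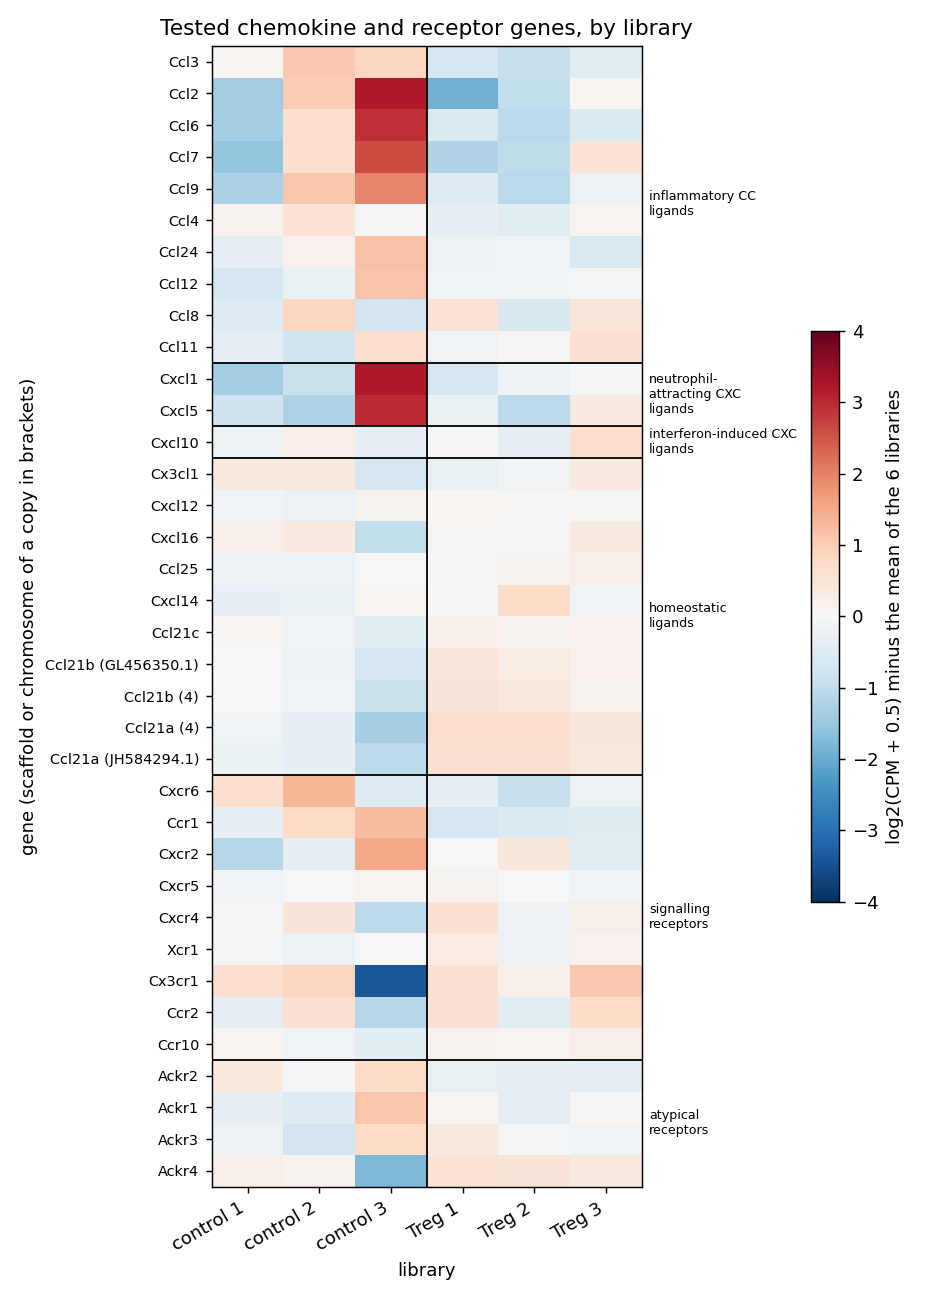
Levels of tested chemokine and receptor rows in each library, as the log2 deviation from the row's mean, with rows ordered by role and the groups divided by a line. The Ccl21 rows are above their mean in the 3 Treg libraries, and the column of control replicate 3 holds most of the strongest deviations.

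Ccl21, the homeostatic ligand displayed by lymphatic endothelium that guides dendritic cells and T cells carrying Ccr7, stood higher in all 3 Treg libraries when its 6 rows were summed. The sum was 9.99, 8.9 and 4.04 CPM in control replicates 1 to 3 and 18.8, 17.9 and 15.6 CPM in Treg replicates 1 to 3. Every Treg library was above every control library, and the lowest value was control replicate 3. The means were 7.64 ± 3.17 CPM (SD, n = 3) in control and 17.4 ± 1.65 CPM (SD, n = 3) in Treg. The difference on the log2 scale was 1.19 ± 0.32 (SE), with an adjusted p of 0.186 by edgeR and of 0.0167 by DESeq2. Without control replicate 3 it was 0.88 with an adjusted p of 0.0351 by edgeR, and without any other single library it lay between 1.14 and 1.44 with adjusted p-values of 0.104 to 0.609 by edgeR.

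The chromosome 4 rows of Ccl21a and Ccl21b share part of their transcript sequence, so reads can be split between them, and the scaffold rows were not compared. Of all windows of 101 bases, the sequenced read length, in the chromosome 4 copy of Ccl21a (chr4:42772860-42773993, minus strand), 15.2% also occur in the chromosome 4 copy of Ccl21b (chr4:42255767-42256432, plus strand), and these make up 38.7% of the Ccl21b windows. The chromosome 4 Ccl21a row was at 5.61, 4.99 and 2.25 CPM in control and 10.7, 10.2 and 8.94 CPM in Treg. Its log2 fold change was 1.22 ± 0.32, with an adjusted p of 0.184 by edgeR and of 0.0179 by DESeq2, and 0.91 without control replicate 3. The scaffold copy of Ccl21a, at 2.42, 2.31 and 1.21 against 4.88, 4.9 and 4.27 CPM, had a log2 fold change of 1.24 ± 0.29 and an adjusted p of 0.159 by edgeR. Both Ccl21a rows separated the groups, as did the 2 tested Ccl21b rows and Ccl21c. The chromosome 4 copy of Ccl21b was at 0.771, 0.661 and 0.202 CPM in control and 1.35, 1.23 and 0.942 CPM in Treg, with a log2 fold change of 1.1 ± 0.45 and of 0.71 without control replicate 3. The tested scaffold copy of Ccl21b was at 0.631, 0.496 and 0.202 CPM in control and 1.09, 0.901 and 0.785 CPM in Treg, with 1.06 ± 0.41 and 0.71. Ccl21c was at 0.351, 0.231 and 0.101 CPM in control and 0.428, 0.396 and 0.408 CPM in Treg, with 0.85 ± 0.44 and 0.5.

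The 5 lymphatic endothelial markers summed to 95.7 to 109.6 CPM in control and 95.5 to 100.4 CPM in Treg, and Prox1, the transcription factor that defines lymphatic endothelium, stood at 47.0 to 63.7 and 49.2 to 54.8 CPM. None of the 5 passed edgeR's test, and Reln had an unadjusted p under 0.05. No dendritic cell marker passed edgeR's test. All 6 tested genes of 8 in that list lay above 0 in fold change. The median of the 6 was 1.21 on the log2 scale. Over the genes of the list tested without control replicate 3, the median was 0.7. The list summed to 17.0 to 29.9 CPM in control and 35.6 to 45.9 CPM in Treg. Flt3, a defining gene of dendritic cells, was between 0.0331 and 0.351 CPM in control and between 0.56 and 0.973 CPM in Treg. Their part in the Ccl21 difference was not tested. Ccr7, the receptor of Ccl21, was below the filter with 6, 7 and 4 counts in control and 11, 8 and 24 in Treg. The groups did not overlap for Ccr7, and its adjusted p was 0.365 by edgeR when no filter on low counts was used.

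**Figure D3:**
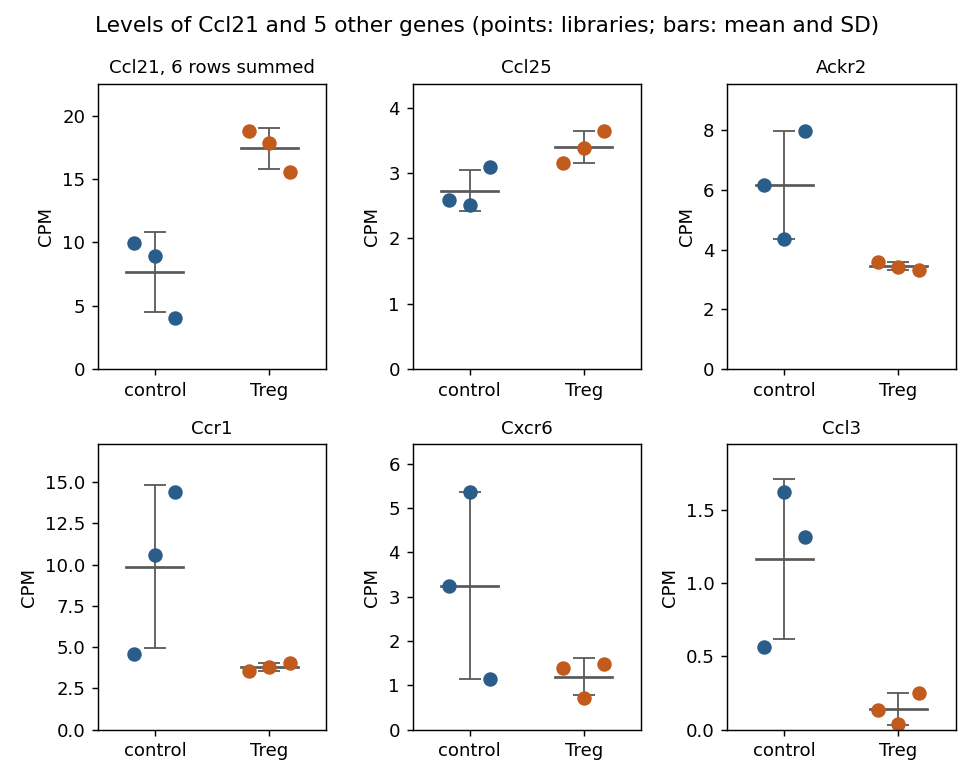
Levels in CPM of the summed Ccl21 rows and 5 other genes, with 1 point for each library and bars for the mean and SD of 3 libraries a group. The Ccl21 sum lies at 4.04 to 9.99 CPM in control and 15.6 to 18.8 CPM in Treg, and Ccl3 lies at 0.561 to 1.62 and 0.036 to 0.251 CPM.

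Among inflammatory CC ligands, 8 of the 10 tested had a fold change below 0, with a median log2 fold change of -1.39. Without control replicate 3 the median was -0.29, over a set that also held Ccl5, which then passed the filter with a log2 fold change of 0.64. Ccl3, a ligand of Ccr1 made by activated macrophages and T cells, showed the largest fold change of the family among the genes tested. It was at 0.561, 1.62 and 1.31 CPM in control and 0.132, 0.036 and 0.251 CPM in Treg, which are 16, 49 and 39 counts against 4, 1 and 8. All control libraries were above all Treg libraries. The log2 fold change was -2.99 ± 0.62 (SE), with an adjusted p of 0.135 by edgeR and of 0.00403 by DESeq2, and without control replicate 3 it was -2.9 with an adjusted p of 0.0859 by edgeR. Ccl4, a close relative of Ccl3, was at 0.421, 0.728 and 0.303 CPM in control and 0.165, 0.108 and 0.408 CPM in Treg, so the groups overlapped. Ccl5, which T cells release, stayed below the filter with 3 to 7 counts in control and 5 to 12 in Treg.

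Ccl2, Ccl7 and Ccl12, ligands of Ccr2 in a cluster of 6 genes on chromosome 11 (chr11:82035571-82305690), were highest in control replicate 3. Ccl2, the main monocyte attractant of the 3, was at 2.17, 13.8 and 64.1 CPM in control and 1.38, 3.1 and 6.9 CPM in Treg. The groups overlapped, with Treg replicate 1 the lowest of the 6 libraries, and the log2 fold change of -2.81 ± 1.11 (adjusted p 0.283 by edgeR) was -1.07 without control replicate 3. Ccl7, which acts on the same receptor, was at 0.736, 5.26 and 22.2 CPM in control and 1.09, 1.33 and 4.93 CPM in Treg, with a log2 fold change of -1.93 ± 1.08 that was -0.29 without control replicate 3. Ccl12, a mouse ligand of Ccr2, was at 2.17, 3.11 and 9.01 CPM in control and 3.43, 3.53 and 3.99 CPM in Treg. For Ccl12 the Treg libraries lay above control replicates 1 and 2 and below control replicate 3, so the log2 fold change went from -0.39 to 0.46 when that library was left out. In the same locus, Ccl8, found in resident macrophages, and Ccl11, an eosinophil attractant, had overlapping groups. Ccl8 was at 2.07, 6.09 and 1.68 CPM against 4.94, 1.84 and 4.68 CPM, and Ccl11 at 0.245, 0.0661 and 1.08 CPM against 0.395, 0.505 and 1.0 CPM.

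Ccl6 and Ccl9, ligands of Ccr1 made by myeloid cells, lie with Ccl3, Ccl4 and Ccl5 in a second cluster on chromosome 11 (chr11:83525778-83664683). Ccl6 was at 8.06, 33.6 and 165.8 CPM in control and 14.2, 10.2 and 14.6 CPM in Treg. Ccl9 was at 5.22, 29.4 and 53.3 CPM in control and 9.16, 6.05 and 11.3 CPM in Treg. In both genes control replicates 2 and 3 were above every Treg library and control replicate 1 was below. The log2 fold change was -2.41 ± 0.93 for Ccl6, with an adjusted p of 0.279 by edgeR, and -0.68 without control replicate 3. For Ccl9 it was -1.73 ± 0.7, with an adjusted p of 0.288 by edgeR, and -0.97 without that library. Ccl24, another eosinophil attractant, was at 1.26, 2.08 and 4.74 CPM in control and 1.52, 1.62 and 1.0 CPM in Treg, with a log2 fold change of -0.97 ± 0.49 that was -0.28 without control replicate 3.

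Of the 5 neutrophil attractants of the CXC class, Cxcl1, Cxcl2, Cxcl3 and Cxcl5 had their highest values in control replicate 3, and Cxcl15 had counts in Treg replicate 1 only. Their promoters are printed because Cxcl1, Cxcl2 and Cxcl3 shared that library and all carry a match to the NF-kB motif GGNNTTTCC. Each line is the plus strand from 130 to 31 bases before the start of the gene in RefSeq (GRCm38.p6), 5′ to 3′, and capitals mark the motif or its reverse complement GGAAANNCC. The windows are chr5:90891115-90891214 for Cxcl1, chr5:90903769-90903868 for Cxcl2 and chr5:90785971-90786070 for Cxcl3.
Cxcl1: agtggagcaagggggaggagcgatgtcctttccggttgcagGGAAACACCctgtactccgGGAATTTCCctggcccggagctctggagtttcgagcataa
Cxcl2: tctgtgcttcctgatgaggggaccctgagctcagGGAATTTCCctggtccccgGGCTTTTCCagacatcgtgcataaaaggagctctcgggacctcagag
Cxcl3: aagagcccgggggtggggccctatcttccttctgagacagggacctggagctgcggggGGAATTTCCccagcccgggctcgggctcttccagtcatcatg

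In the 250 bases before the start, searched on both strands, the motif occurs in a promoter of 1518 of 27025 genes (5.62%) and of 9 of the 45 family genes with an entry. The 9 are Ackr4, Ccl9, Ccl20, Ccr3, Cxcl1, Cxcl2, Cxcl3, Cxcl9 and Cxcl10. The core of the interferon response motif, TTTCNNTTT or its reverse complement AAANNGAAA, occurs in a promoter of 2915 genes (10.8%) and of 6 of the 45, Ccl19, Ccl27b, Ccl28, Ccr1, Cxcl10 and Cxcl14. Ccl9, also highest in control replicate 3, has an NF-kB match. In contrast, Ccl6, Ccl12, Ccr1, Cxcr2, Cxcl12, Ackr1, Ackr2 and Ackr3, highest there too, have none. Ackr4, Cxcl9 and Ccr3, which have a match, were lowest in that library, with Cxcl9 and Ccr3 at 2 and 0 counts there. A match describes the letters of the window only, and its part in the levels was not tested.

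Cxcl1, the ligand that draws neutrophils through Cxcr2, was at 0.561, 0.959 and 24.7 CPM in control and 1.22, 1.87 and 2.1 CPM in Treg. Its level in control replicate 3 was 20.2 times the median of the other libraries, while every Treg library was above control replicates 1 and 2. The log2 fold change of -2.33 ± 1.28 became 1.18 without control replicate 3, with an adjusted p of 0.137 by edgeR. Cxcl5, another ligand of Cxcr2, was at 0.421, 0.198 and 12.4 CPM in control and 0.857, 0.288 and 1.6 CPM in Treg, and its log2 fold change went from -2.23 to 1.58. Cxcl2 and Cxcl3, early ligands of the same receptor, were below the filter. Cxcl2 had 6, 7 and 85 counts in control and 0, 6 and 11 in Treg, and Cxcl3 had 0, 2 and 30 counts in control and 0, 2 and 0 in Treg. Cxcr2 itself, the neutrophil receptor for these ligands, was at 0.0701, 0.463 and 3.03 CPM in control and 0.725, 1.19 and 0.439 CPM in Treg. Its highest and lowest values were both in control libraries, and the log2 fold change went from -0.61 ± 1.0 to 1.51 without control replicate 3.

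Counted over the family, control replicate 3 was more than 2-fold above every other library for 9 of 37 rows, beside 2.43% of all genes tested, and more than 2-fold below every other library for 7 rows, beside 4.96%. The 9 were Cxcl1, Cxcl5, Cxcr2, Ccl2, Ccl6, Ccl7, Ccl12, Ccl24 and Ackr1. The 7 were the chromosome 4 row of Ccl21a, 2 Ccl21b rows, Ccl21c, Ackr4, Cx3cr1 and Cxcl16. None of the other 5 libraries stood apart in this way for more than 1 row in a direction. In the same library, Chil3 and Arg1, genes of inflammatory monocytes and macrophages, were at 41.6 and 41.2 CPM, against at most 6.09 and 4.03 CPM elsewhere. The list of 11 such markers summed to 561.3, 1288.1 and 1048.9 CPM in control and 620.2, 416.1 and 931.9 CPM in Treg. The 11 neutrophil markers summed to 49.6 CPM in that library and to between 8.56 and 19.4 CPM in the others, and Ly6g, their defining marker, had 0 counts in all 3 control libraries. The endothelial adhesion molecules Sele and Selp, which slow rolling leukocytes, were at 26.2 and 24.8 CPM in it and at most 3.67 and 1.72 CPM elsewhere. The 11 endothelial markers, which include Sele and Selp, summed to 882 CPM in it and to between 599.9 and 769.1 CPM in the others. The part of these cells in the chemokine levels was not tested.

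**Figure D4:**
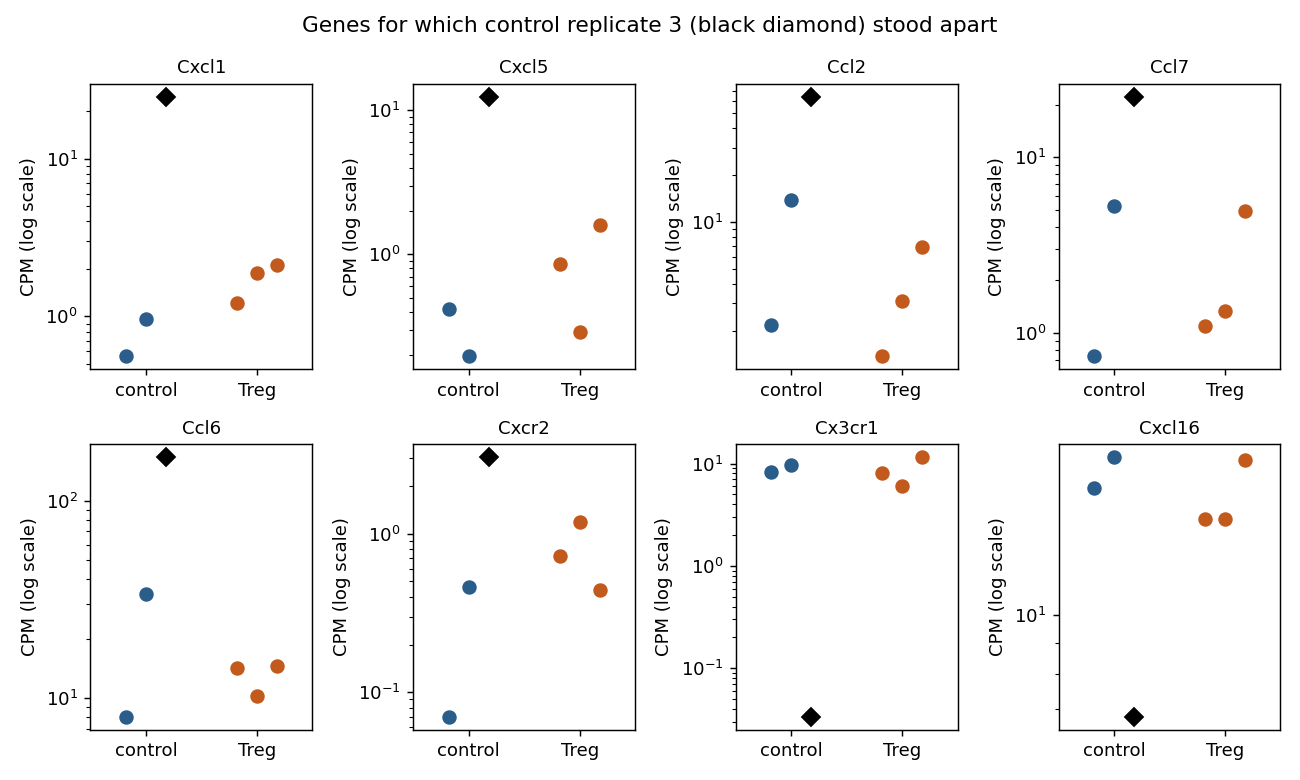
Levels in CPM on log axes of genes for which control replicate 3, drawn as a black diamond, stood apart from the other 5 libraries. For Cxcl1 the diamond is at 24.7 CPM and the other libraries lie between 0.561 and 2.1 CPM.

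Cxcl9 and Cxcl10, the interferon-induced ligands that attract T cells through Cxcr3, were low. Cxcl9 was below the filter with 4, 4 and 2 counts in control and 11, 6 and 29 in Treg. Its groups did not overlap, and its adjusted p was 0.232 by edgeR when no filter was used. Cxcl10 was at 0.281, 0.595 and 0.235 CPM in control and 0.395, 0.216 and 1.0 CPM in Treg, with a log2 fold change of 0.55 ± 0.62. It overlaps Art3 on the opposite strand. Cxcr3 had 1 to 5 counts in control and 2 to 8 in Treg, too few to test.

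None of the other homeostatic ligands tested had an unadjusted p under 0.05 by edgeR. Cxcl12 was at 167.4, 150.3 and 197.7 CPM in control and 188.7, 186.2 and 186.6 CPM in Treg. The control libraries lay on both sides of the Treg libraries, and the log2 fold change was 0.12 ± 0.14, with an adjusted p of 0.666 by edgeR. Cxcr4, its signalling receptor, was at 6.59, 10.2 and 3.13 CPM in control and 10.8, 5.8 and 8.16 CPM in Treg. The log2 fold change of Cxcr4 was 0.32 ± 0.42, and -0.02 without control replicate 3. Cxcl14, a ligand of epithelia and stroma, was at 7.96, 8.07 and 10.7 CPM in control and 9.42, 16.9 and 9.38 CPM in Treg, with Treg replicate 2 the highest. Ccl25, the thymic and gut ligand of Ccr9, was at 2.59, 2.51 and 3.09 CPM in control and 3.16, 3.39 and 3.64 CPM in Treg. Although the groups of Ccl25 did not overlap, the log2 fold change was 0.31 ± 0.19, with an adjusted p of 0.439 by edgeR. Ccl25 (chr8:4325210-4360020) overlaps Elavl1 on the opposite strand, which was at 27.6 to 32.9 CPM in control and 23.3 to 28.0 CPM in Treg.

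Cx3cl1 and Cxcl16 are made as membrane-bound proteins that hold cells as well as attracting them. Cx3cl1, the ligand of Cx3cr1, was at 20.3, 20.2 and 9.28 CPM in control and 12.5, 13.8 and 19.6 CPM in Treg. The log2 fold change of Cx3cl1 was -0.12 ± 0.32, and -0.4 without control replicate 3. Cx3cr1 was at 8.28, 9.72 and 0.0336 CPM in control and 8.17, 6.05 and 11.5 CPM in Treg. The low value in control replicate 3 was a single count, with an exact 95% Poisson interval of 0.0253 to 5.57 counts that covers counting error only. The median of the other libraries was 246 times as high, with a counting interval of 44.2 to 9720. The log2 fold change of Cx3cr1 was 0.52 ± 1.02, and -0.06 without that library. The resident macrophage list summed to 304.9 to 521.8 CPM in control, with 511.0 CPM in control replicate 3, and to 379.0 to 460.3 CPM in Treg. The part of these cells in the Cx3cr1 level was not tested. Cxcl16, which binds lipids and attracts cells with Cxcr6, was at 16.2, 18.2 and 6.79 CPM in control and 14.4, 14.4 and 18 CPM in Treg, with a log2 fold change of 0.18 ± 0.34 and of -0.14 without control replicate 3. It overlaps Zmynd15 on the opposite strand, which was also lowest in control replicate 3, at 2.15 CPM. Cxcr6, carried by T cells and innate lymphocytes in tissue, was at 3.23, 5.36 and 1.14 CPM in control and 1.38, 0.721 and 1.48 CPM in Treg. Control replicate 3 lay within the Treg range and the other 2 control libraries above it. The log2 fold change was -1.43 ± 0.55, with an adjusted p of 0.279 by edgeR, and -1.84 with an adjusted p of 0.0524 by edgeR without control replicate 3. Of 16 T and NK cell markers, 4 were tested, 3 with a fold change above 0 (Il2ra 1.69 ± 0.55, Cd4 1.17 ± 0.5 and Foxp3 0.04 ± 0.22 on the log2 scale) and Cd3e below 0 at -3.76 ± 0.96. The list summed to 6.52, 3.74 and 18.3 CPM in control and 5.6, 5.26 and 6.4 CPM in Treg, of which Cd3e made up 15.6 CPM in control replicate 3, and its part in the Cxcr6 level was not tested.

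Of the signalling receptors, 10 of 18 were tested, 7 with a fold change above 0 and 3 below. Ccr1, the receptor of Ccl3, Ccl6 and Ccl9 on monocytes and neutrophils, separated the groups. It was at 4.59, 10.6 and 14.4 CPM in control and 3.53, 3.82 and 4.05 CPM in Treg, with control replicate 1 closest to Treg. The log2 fold change was -1.38 ± 0.38 (SE), with an adjusted p of 0.2 by edgeR and of 0.018 by DESeq2, and -1.0 without control replicate 3. Ccr1 thus lay lower in Treg along with its ligand Ccl3. Ccr2, the monocyte receptor of Ccl2, was at 7.43, 15.1 and 4.17 CPM in control and 15.2, 6.92 and 16.5 CPM in Treg. Unlike its ligand, Ccr2 was lowest in control replicate 3, and the groups overlapped. The log2 fold change of Ccr2 was 0.53 ± 0.5, and 0.19 without that library. Xcr1, found on cross-presenting dendritic cells, was at 0.491, 0.364 and 0.538 CPM in control and 0.791, 0.36 and 0.659 CPM in Treg. Ccr10, the skin-homing receptor, had a log2 fold change of 0.59 ± 0.36 and Cxcr5, the B cell follicle receptor, one of 0.07 ± 0.34.

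**Figure D5:**
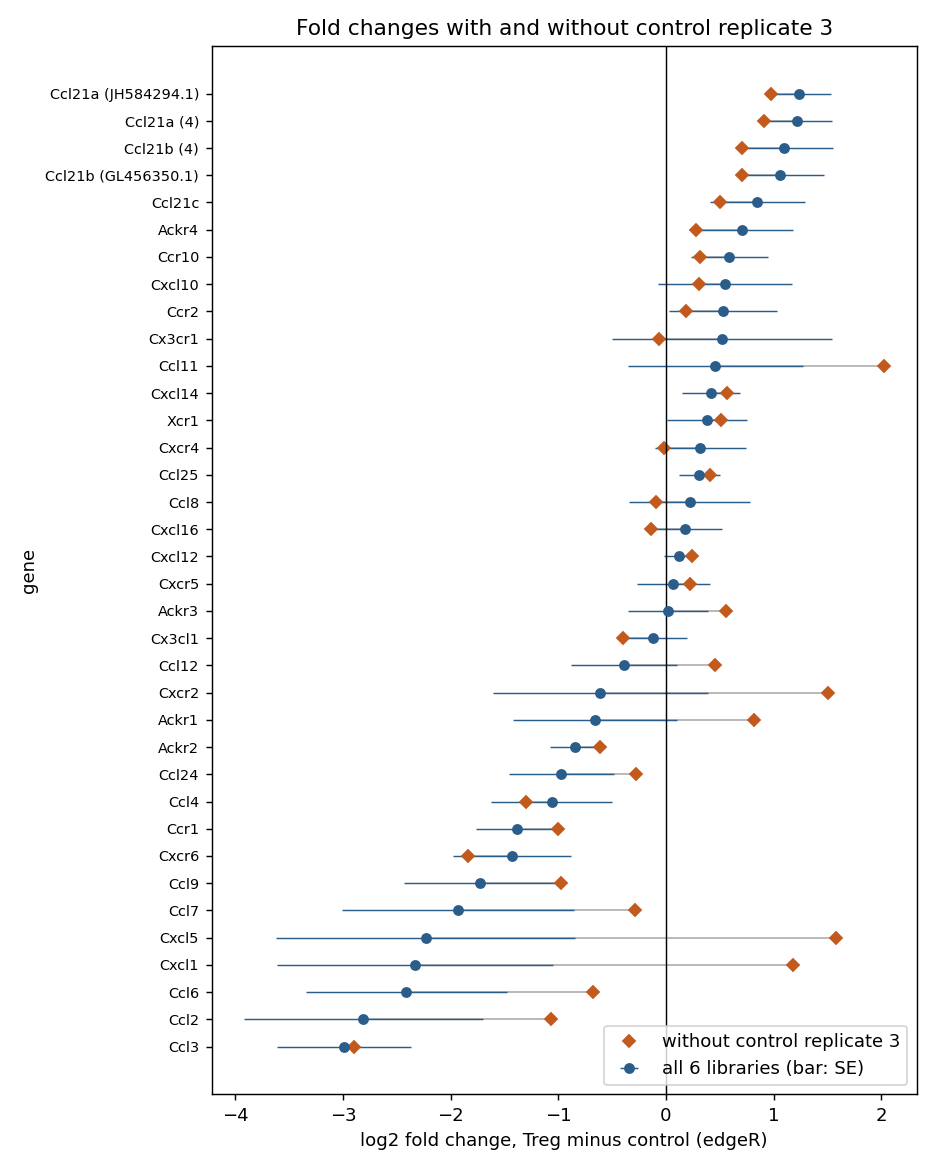
Log2 fold change of Treg minus control by edgeR for the tested rows drawn, as a point with its SE for all 6 libraries and, joined to it by a grey line, as a diamond without SE when control replicate 3 is left out. Cxcl1, Cxcl5 and Cxcr2 lie below 0 with all libraries and above 0 without that library, while Ccl3 lies at -2.99 and -2.9.

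All 4 atypical receptors were tested. Ackr2, which scavenges inflammatory CC ligands on lymphatic endothelium, was at 6.17, 4.37 and 7.97 CPM in control and 3.59, 3.42 and 3.33 CPM in Treg. The groups did not overlap, and the log2 fold change was -0.84 ± 0.24, with an adjusted p of 0.21 by edgeR and of 0.0668 by DESeq2. Without control replicate 3 the log2 fold change of Ackr2 was -0.61, with an adjusted p of 0.159 by edgeR. Ackr4, which scavenges Ccl19, Ccl21 and Ccl25, was at 29.1, 26.9 and 6.66 CPM in control and 35.6, 35.2 and 31.6 CPM in Treg. Its groups did not overlap either, and the log2 fold change was 0.71 ± 0.47 and 0.28 without control replicate 3. Ackr4 (chr9:104084157-104126933, minus strand) overlaps Acad11 on the opposite strand, which was at 87.0, 65.4 and 29.0 CPM in control and 109.3, 134.9 and 106.0 CPM in Treg. Ackr3, which takes up Cxcl12, was at 53.7, 36.0 and 104.7 CPM in control and 80.9, 59.6 and 57.3 CPM in Treg. Control libraries held both its lowest and its highest level, and the log2 fold change was 0.02 ± 0.37. Without control replicate 3 the log2 fold change of Ackr3 was 0.56, with an adjusted p of 0.24 by edgeR. Every Treg library then lay above the remaining control libraries. Ackr1, the receptor of venules that carries inflammatory chemokines across the vessel wall, was at 0.316, 0.231 and 1.75 CPM in control and 0.593, 0.288 and 0.565 CPM in Treg. Its log2 fold change went from -0.66 ± 0.76 to 0.82 without control replicate 3. Ackr1 overlaps Cadm3 on the same strand, which was at 1.72, 1.39 and 3.36 CPM in control and 4.74, 3.82 and 4.08 CPM in Treg. The part of Cadm3 reads in the Ackr1 level was not tested.

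The 29 rows below the filter reached at most 85 counts in any library, that of Cxcl2 in control replicate 3. Ccl1, Ccl26 and Ccr8 had 0 counts in all 6 libraries, where a count of 0 allows up to 3 counts, or 0.0942 to 0.108 CPM by library. Counting these 3, 10 rows had 0 to 2 counts in every library, the others being Ccl20, Ccl27b, 2 Ccl27 rows, Ccr4, Cxcl17 and Xcl1. The untested scaffold row of Ccl21b had 7, 5 and 2 counts in control and 9, 8 and 8 in Treg. Xcl1, the ligand of Xcr1, had 0 counts in the control libraries and 2, 1 and 1 in Treg. Of the 26 rows below the filter with at least 1 count, the groups did not overlap for 4, all higher in Treg. They were Ccr7, Cxcl9, Xcl1 and a scaffold row of Ccl21b. Among all 11156 genes below the filter with at least 1 count, 3.93% separated in this direction. Ccl19, the other ligand of Ccr7, had at most 4 counts in a library in its chromosome 4 row and at most 3 in its scaffold row. Ccl17 and Ccl22, ligands of Ccr4, had 2 to 20 and 0 to 11 counts, and Ccr4 itself had 1 count in all, in Treg replicate 3. Ccr6, a receptor of some T cells, had at most 1 count in control and 4, 0 and 6 in Treg. Cxcr1, Ccr3, Ccr9, Ccl28, Cxcl13 and Ccl27a stayed at or below 13 counts in each library, and Cxcl15 had 9 counts in Treg replicate 1 and 0 in every other library.

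Chemokines that carry other symbols, and genes that make, present or transmit the signal, gave no edgeR call either. Of the 8 ligands and receptors with other symbols, 7 were tested, 2 with a fold change above 0 and 5 below. Mif, a cytokine that also binds Cxcr2 and Cxcr4, was at 98.4, 96.0 and 97.5 CPM in control and 59.9, 64.3 and 66.4 CPM in Treg. Its groups lay far apart relative to their spread, and the log2 fold change was -0.62 ± 0.11, with an adjusted p of 0.112 by edgeR and of 0.000122 by DESeq2. Without control replicate 3 the log2 fold change of Mif was -0.61, with an adjusted p of 0.042 by edgeR. Cmklr1, the chemerin receptor, was at 26.0 to 31.1 CPM in control and 17.3 to 22.6 CPM in Treg. Of 25 genes of G protein coupling and receptor desensitisation, 1 had an unadjusted p under 0.05, Grk3, a receptor kinase, with a log2 fold change of -0.55 ± 0.21. Of 17 genes of heparan sulphate presentation and cleavage, 2 were higher and 4 lower at that level. They included Dpp4, a protease that trims chemokines, at 1.26, 0.992 and 0.605 CPM in control and 2.6, 2.16 and 3.14 CPM in Treg, with an adjusted p of 0.143 by edgeR and of 0.00871 by DESeq2. Of 21 tested transcriptional inducers, 5 were higher and 2 lower at an unadjusted p under 0.05, and these lists' counts stand beside 8.24% higher and 8.31% lower over all genes tested. Irf7, an interferon response factor, had a log2 fold change of 1.06 ± 0.33, and Hif1a, the hypoxia response factor, one of -0.47 ± 0.12 with an adjusted p of 0.17 by edgeR and of 0.00827 by DESeq2.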

How the data were processed

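The deposited table holds estimated counts per gene and library, and between 46.5% and 50.0% of the values above 0 are fractional. The submitters' processing notes name the build GRCm38 and, without their roles, featureCounts 2.0.6, HISAT2 2.1.0, Trimmomatic 0.39 and Cuffdiff 2.2.1, and per the labels' protocols the libraries were TruSeq Stranded mRNA. Counts were rounded, which changed library totals by at most 0.0009%, and fitted with edgeR 4.0.16 (filterByExpr, TMM, robust quasi-likelihood test, R 4.3.3) on all genes with Benjamini-Hochberg adjustment at 0.05. DESeq2 1.42.0, limma 3.58.1, other filters and scalings, weights, a replicate block and omitted libraries were alternatives. Summing the rows of Ccl19, of Ccl21 and of Ccl27 was added after seeing the data. Another 6 columns of values were not used. Of 47729 identifiers, 47310 matched the GENCODE M21 annotation. Members and lists were chosen with earlier results of these data known. Values in every library are given for members with an unadjusted p under 0.05, separate groups, a mean of 3 CPM or a place in a named ligand and receptor axis, and for the 6 largest fold changes in each direction, and the rest by counts and ranges. From the other lists, up to 4 genes of smallest p were named, with defining markers added after their values were seen. A single member is not reported here by name, and it remains in the counts, sums and medians over the family.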

Additional observations from a re-analysis of the deposited data

How the results depend on the processing

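The count of chemokine and receptor genes called by edgeR was 0. It was 4 with DESeq2's Wald test, 2 with sample quality weights, and 0 to 1 when each library was left out, the 1 being without control replicate 3. Over all genes edgeR called 0, against 652 with DESeq2, 32 with no filter on low counts, 273 with quality weights, 56 at an adjusted p under 0.1, and 0 to 226 when each library was left out, the 226 again being without control replicate 3. The family median of 0.12 was 0.3 with limma-voom, 0.29 with no filter on low counts, 0.28 with quality weights and from -0.02 to 0.26 when each library was left out. It was 0.02 over 33 rows with the Ccl19, Ccl21 and Ccl27 rows summed, and 0.03 over the 25 rows with a mean of at least 1 CPM. With the replicate number as a block the median was 0.27 and Cxcr2 turned to 0.27, and no gene was called. Deviations of same-numbered libraries correlated at -0.12, -0.23 and 0.05, and those of differently numbered libraries at -0.24 to 0.3. So few values cannot show whether the numbers pair the libraries. The direction of Cxcr2 also turned with limma-voom, to 0.52. With quality weights it turned for Ackr1 (0.67), Ccl12 (0.28), Cxcl1 (0.6), Cxcl16 (-0.05), Cxcl5 (1.11) and Cxcr2 (1.24). Leaving out each library, the log2 fold change ranged from -1.08 to 0.82 for Ackr1, -0.26 to 0.56 for Ackr3, -0.05 to 2.03 for Ccl11, -0.72 to 0.46 for Ccl12, -0.09 to 1.02 for Ccl8 and -0.4 to 0.06 for Cx3cl1. It ranged from -0.06 to 1.03 for Cx3cr1, -2.87 to 1.18 for Cxcl1, -0.27 to 1.07 for Cxcl10, -0.14 to 0.43 for Cxcl16, -2.9 to 1.58 for Cxcl5, -1.14 to 1.51 for Cxcr2, -0.02 to 0.76 for Cxcr4 and -0.08 to 0.22 for Cxcr5. Of 559 single-gene values under the alternatives, 523 kept their direction and their side of the threshold and 29 changed direction. Another scaling (DESeq2's size factors in edgeR) turned none of 36. The cause was not tested.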
